A study of Canis lupus familiaris with 28 samples.

Results

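The transcripts described here differed little with cell density in wild-type dog cells and were lower in cells with both p190 proteins knocked down. They number 57 of the 29884 Ensembl dog transcripts counted. They were chosen by measured values, so the levels that chose them are given as a description, with no test. The scale of the choice was log2(group mean CPM + 1), where CPM is a transcript's count scaled to the library's total of reads assigned to transcripts. A member differed by less than 0.4 on this scale between confluent and sub-confluent wild-type cells. It fell by at least 1, about 2-fold or more, from wild type to double knockdown at confluence in each of 2 experiments. Its levels in the p190A and p190B single knockdowns at confluence differed by less than 0.7.

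The p190 proteins, p190A and p190B, are GTPase-activating proteins that act on the actin cytoskeleton. In many epithelial cells, tension in contractile actin fibres favours entry of the coactivator YAP1 into the nucleus. YAP1 does not bind DNA itself and acts largely through TEAD transcription factors. Crowded epithelial cells usually keep YAP1 out of the nucleus. The members were chosen for little difference with density in wild-type cells and a lower level in cells with both shRNAs.

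Messenger RNA was sequenced from TR-T10, a dog cell line. All knockdown lines carried doxycycline-inducible shRNAs, introduced by retrovirus and selected with hygromycin (p190A), puromycin (p190B) or one after the other (both, starting from the p190B line). Experiment 1 held wild-type, p190A knockdown, p190B knockdown and double knockdown cells, each confluent and sub-confluent, with 2 libraries per group. Experiment 2 was confluent throughout and held 3 libraries of wild type, 3 of double knockdown and 3 of double knockdown cells to which YAP5SA+S94A had been added. Its last group, labelled YAP5SA, had 3 samples. In YAP5SA, the sites on YAP1 that LATS kinases use to inhibit it are replaced by alanine, and the S94A change removes binding to TEAD. The labels disagree on whether the YAP5SA cells also carried both shRNAs, and that group is referred to below as the libraries labelled YAP5SA. Doxycycline at 4 µg/ml induced the shRNAs for 3 days, cells were then replated for 3 to 5 days, and the labels do not say whether wild-type cells received it. The single knockdown lines were selected separately, and the double line went through a further selection from the p190B line. Both densities of experiment 1 used the same lines, so a difference between lines and a knockdown effect cannot be told apart.

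Replicates 1 and 2 of the YAP5SA group held identical values in all 29884 rows. The pair enters once, so 27 distinct libraries were used and the YAP5SA group has n = 2. Transcript counts summed to between 10706716 and 17215544 per library. The labels do not state that replicates were independent cultures: the p-values then reflect the spread of these samples alone, and it may be technical. The files do not pair the identifiers with gene names, and the reference table matched 0 of them. Neither the targeted genes nor cell type markers were therefore read, and 4 identifiers are printed in all.

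The rule worked through the transcripts as follows. In experiment 1, 1018 transcripts fell by at least 1 with the double knockdown, and in experiment 2, 750 did. Both falls held for 439. Of these, 329 were higher at confluence in wild-type cells by 0.4 or more, 17 were lower, and 93 were flat. A further 36 of the flat ones had single knockdowns that lay apart, which left the 57 members. The limits cut through a continuous range: in experiment 1 the nearest member had a fall of -1.008 and the nearest transcript outside -0.999, and in experiment 2 the values were -1.034 and -0.999. At the density limit the nearest values were 0.396 and 0.410, and at the limit on the single knockdowns 0.695 and 0.722. Flat means within the limit: 9 members were lower and 16 higher in confluent than in sub-confluent wild type without overlap. Of the 12845 transcripts tested in experiment 1, 3885 were lower and 5103 higher in this way. All 57 members passed the filter on low counts in both experiments.

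The members were mostly of low or middling abundance. In confluent wild-type cells of experiment 1, 24 lay under 10 CPM, 22 between 10 and 100 CPM and 11 above 100 CPM. Over the 57 members, the median level there was 13.9 CPM, the lowest 1.17 CPM and the highest 279 CPM. Summed over the set, the members took 2486 and 2491 CPM in the 2 confluent wild-type libraries and 711 and 739 CPM in the confluent double knockdown libraries. In bulk RNA, fewer cells expressing a transcript and less of it per cell cannot be told apart.

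Across libraries the members formed a staircase. At confluence in experiment 1, the median member level was 13.1 and 14.9 CPM in the wild-type libraries, 7.59 and 9.75 CPM with the p190A shRNA, 7.43 and 8.61 CPM with the p190B shRNA, and 3.70 and 3.96 CPM with both. The wild-type libraries were highest, the double knockdown libraries lowest, and the 2 single knockdowns overlapped each other between them. In sub-confluent cells the medians were 13.2 and 11.5 CPM in wild type, 9.36 and 5.17 CPM with the p190A shRNA, 7.99 and 7.16 CPM with the p190B shRNA, and 4.06 and 2.79 CPM with both. The same order held there, with the p190A libraries wider apart than any other pair. In experiment 2 the medians were 19.6, 21.1 and 18.9 CPM in wild type, 4.77, 4.96 and 4.87 CPM in the double knockdown, 10.6, 10.3 and 11.5 CPM with YAP5SA+S94A added, and 20.9 and 19.0 CPM in the libraries labelled YAP5SA. The libraries labelled YAP5SA overlapped wild type, and those with YAP5SA+S94A lay between wild type and double knockdown without overlapping either.

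**Figure D1:**
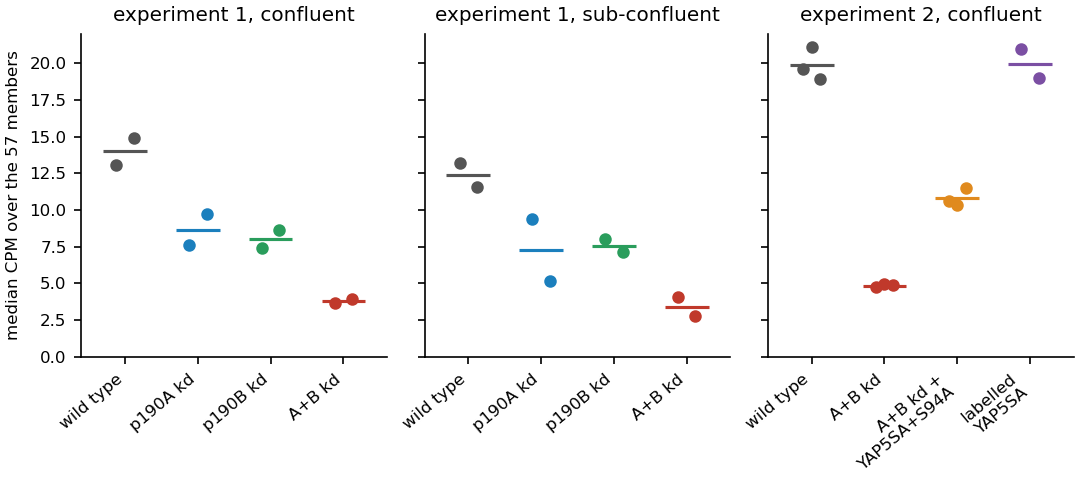
Median CPM over the 57 members in each library (points), with the mean of each group (line), in 3 panels for the confluent and sub-confluent cells of experiment 1 and the confluent cells of experiment 2. The wild-type libraries of experiment 1 lay between 11.5 and 14.9 CPM and its double knockdown libraries between 2.79 and 4.06 CPM.

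The size of the fall that chose the members varied widely. From wild type to double knockdown at confluence, the differences ran from -3.14 to -1.01 with a median of -1.49 in experiment 1, and from -3.71 to -1.03 with a median of -1.43 in experiment 2. All 57 lay below wild type without overlap in each experiment, as did 38.4% of all transcripts tested in experiment 1 and 40.2% in experiment 2. A fall of at least 1 was found for 7.92% and 5.74% of all transcripts tested. A fall of 4-fold or more was reached by 14 members in experiment 1, by 11 in experiment 2 and by 7 in both. Over the 57 members the falls of the experiments, which share no library, had Pearson's r = 0.383 and Spearman's rank correlation = 0.379. Both falls were cut at the same limit by the rule. Wild-type levels also differed between the experiments: 5 members were at least 2-fold higher in experiment 2. The matching share of all transcripts was not counted, so nothing is read from this number.

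**Figure D2:**
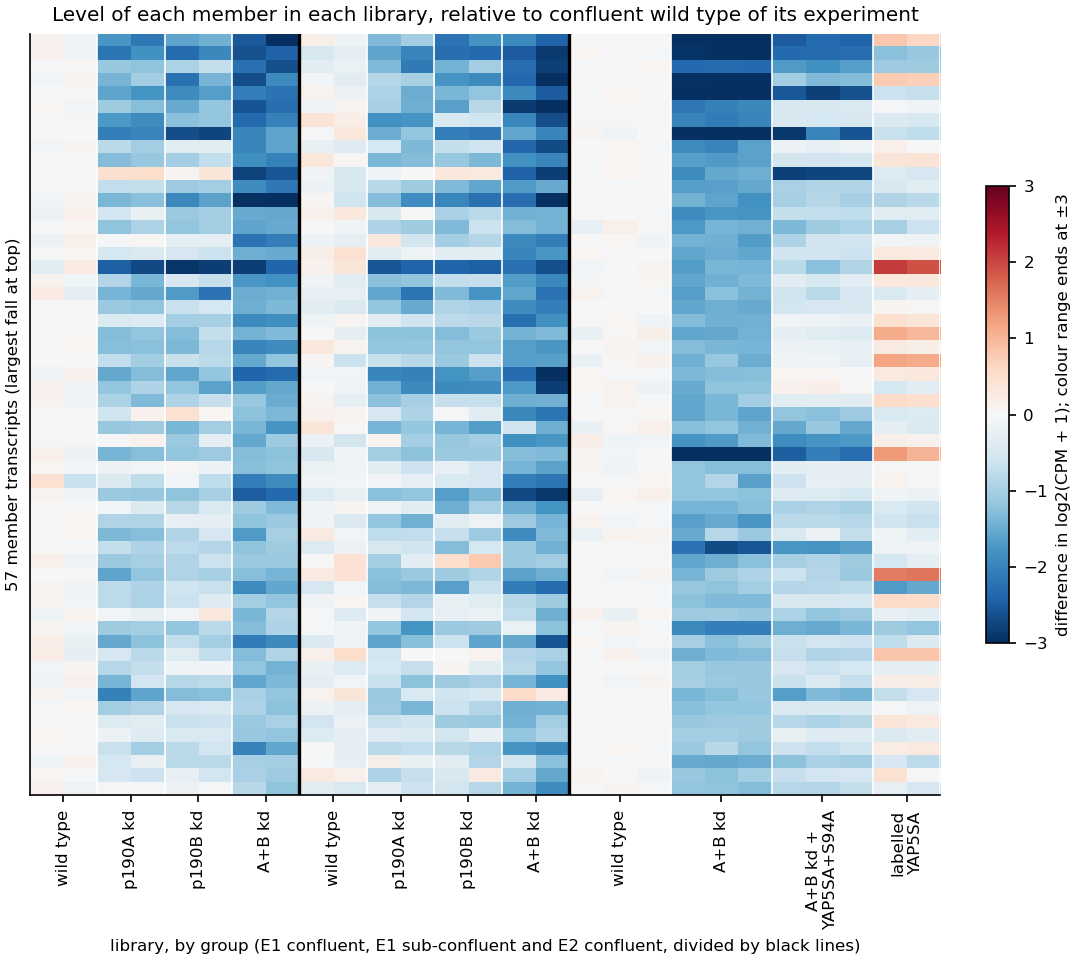
Each row is 1 of the 57 members, ordered by the smaller of its falls in the 2 experiments, and each column 1 library. Colour gives log2(CPM + 1) minus the confluent wild-type mean of the same experiment. Double knockdown columns are blue in nearly every row at both densities, single knockdown columns are paler, and columns of the libraries labelled YAP5SA mix red and blue.

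In the single knockdown lines, most members lay between wild type and double knockdown, which is given as a description. At confluence, the difference from wild type had a median of -1.04 with the p190A shRNA and -0.81 with the p190B shRNA. Over all 12845 transcripts tested in experiment 1 the medians were -0.03 and -0.05. The p190A libraries lay below both wild-type libraries for 50 of 57 members (31.7% of all transcripts tested did so), and the p190B libraries for 51 (32.6% of all). These counts use the wild-type libraries that chose the members, so nothing is read from them. Set against the fall with both shRNAs, the mean of the single knockdowns had covered a median of 56.4% of it on the log2 scale, with quartiles of 41.0% and 74.1%. For 8 members it had covered less than 25%, and for 12 at least 75%. For 47 of 57 members the group means were ordered wild type, then both single knockdowns, then double knockdown (19.4% of all transcripts tested). The rule sets wild type above double knockdown and keeps the single knockdowns close, so nothing is read from this count either.

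The sub-confluent wild-type libraries entered the rule only through flatness, while the sub-confluent knockdown libraries did not enter it. The same picture held there as a description. From sub-confluent wild type to sub-confluent double knockdown, the median difference was -1.63, against 0.04 over all transcripts tested. The CPM values lay below wild type without overlap for 56 of 57 members (30.7% of all transcripts tested). The fall was at least 2-fold for 47 members (5.16% of all). With 1 shRNA, the medians were -0.90 for p190A and -0.78 for p190B, and the single knockdowns covered a median of 47.9% of the fall. For 46 members the group means had the order wild type, both single knockdowns, double knockdown (11.8% of all), and 40 members had it at both densities (6.98% of all). The rule partly sets the confluent order and holds sub-confluent wild type close to confluent wild type. Nothing is read from these 2 counts. Over members, the falls at the 2 densities had Pearson's r = 0.790 and Spearman's rank correlation = 0.825. The libraries differ, but the lines are the same. The rule also cut the confluent fall and held the 2 wild-type levels close, so nothing is read from these correlations.

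The first test on libraries outside the rule set double knockdown against each single knockdown in sub-confluent cells. The double line was made from the p190B line, so only the p190B comparison sets an added shRNA against its starting line. The sub-confluent libraries came from the lines whose confluent libraries chose the members, so an excess of lower calls can follow from that choice. Most members were called lower with both shRNAs in each comparison with a single knockdown, but not in both comparisons at once. Against the p190A knockdown, 36 of 57 members were lower and 1 was higher (edgeR quasi-likelihood test, Benjamini-Hochberg adjusted p under 0.05 over 12845 transcripts). Among all transcripts tested, 11.8% were lower and 8.65% higher. The members' log2 fold changes had a median of -1.002, against 0.00 over all transcripts. Against the p190B knockdown, 36 members were again lower and 1 higher, where 16.3% of all transcripts were lower and 15.3% higher, and the median was -1.13. Both comparisons share the double knockdown libraries, so they are given side by side: 26 members were lower against both, 10 against p190A alone, 10 against p190B alone and 11 against neither. Of all transcripts tested, 6.45% were lower against both.

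The p190A comparison rested partly on single libraries. Without sub-confluent double knockdown replicate 2, whose median member level was the lower of the pair, 21 members were lower and 2 higher than in p190A cells, and the share of all transcripts called fell from 20.4% to 8.71%. Fitted on the 4 compared libraries alone, 10 of the 53 members that passed its filter were lower and 0 higher, with 1.79% of all transcripts called, while 38 members had an unadjusted p under 0.05. The members' median log2 fold change there was -0.98, close to that of the shared fit. In the p190B comparison, a fit of its own 4 libraries called 35 lower and 1 higher of the 52 members that passed its filter, with 29.3% of all transcripts called. With each library left out in turn, the members' median log2 fold change against p190B ran from -1.28 to -0.91. The share of all transcripts called was lower each time than in the shared fit.

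**Figure D3:**
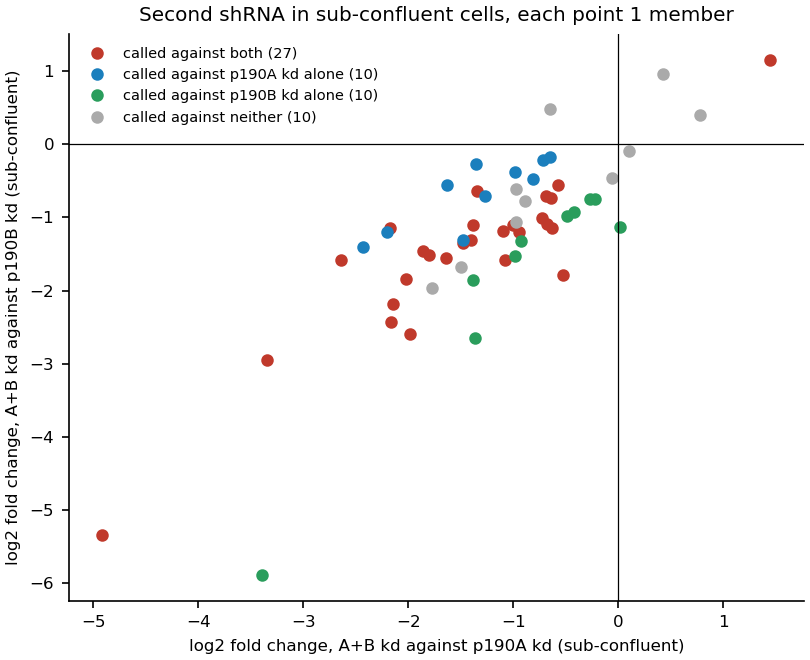
Log2 fold change of sub-confluent double knockdown against the p190A knockdown (horizontal) and against the p190B knockdown (vertical) for each of the 57 members, coloured by which comparison called it. Most points lie below 0 on both axes, and 1 called member lies above 0 on both.

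The p190A and p190B knockdowns themselves were compared in sub-confluent cells, where the rule had not looked. There 8 members were lower and 8 higher with the p190A shRNA than with the p190B shRNA (10.3% and 11.0% of all transcripts tested). That is 16 of 57, where 21.3% of all transcripts were called. The members' share was thus near the background. Their log2(CPM + 1) differences ran from -1.28 to 0.98 with a median of -0.03. The count was 7 without sub-confluent p190A replicate 2 (13.3% of all transcripts called), 5 and 6 without p190B replicates 1 and 2 (9.34% and 11.2% of all), and 3 of 54 tested in a fit of the 4 compared libraries (7.24% of all).

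Density was also compared in the single knockdowns, averaged over p190A and p190B. The confluent single knockdown libraries entered the rule through their difference from each other, so the counts are a description and nothing is read from them. In the fit, 6 members were lower and 4 higher at confluence (15.4% and 14.3% of all transcripts tested). That is 10 of 57, where 29.8% of all transcripts were called. The median log2 fold change was 0.01. The members' count moved with single libraries, as did the share of all transcripts called. Without sub-confluent p190A replicate 1 they were 18 members and 38.6%, and without replicate 2 they were 3 members and 16.2%. Without confluent p190A replicates 1 and 2 they were 6 members and 19.4%, and 3 members and 20.7%. Without confluent p190B replicate 2 they were 5 members and 18.1%. Without sub-confluent p190B replicates 1 and 2 they were 6 members and 22.0%, and 4 members and 16.6%. A p above the threshold does not show that a member is flat.

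In experiment 2, adding a YAP1 that cannot bind TEAD to double knockdown cells went with higher levels of most members, and the levels stayed below wild type. The difference between YAP5SA+S94A and double knockdown had a median of 0.72, against -0.02 over all transcripts tested. All 3 YAP5SA+S94A libraries lay above all 3 double knockdown libraries for 51 of 57 members (26.6% of all transcripts tested). They lay below all wild-type libraries for 52 members (38.7% of all). The double knockdown and wild-type libraries chose the members, so these are descriptions. On the log2 scale the YAP5SA+S94A cells had regained a median of 45.3% of the fall, with quartiles of 27.6% and 66.7%. Regain was under 25% for 11 members and at least 75% for 10. It was 32.8% at the median of the 24 members under 10 CPM, 47.1% for the 22 between 10 and 100 CPM and 74.0% for the 11 above 100 CPM. The pseudocount of 1 CPM weighs most on the first of these classes.

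The libraries labelled YAP5SA stood near wild type. Their difference from wild type had a median of -0.12, with quartiles of -0.45 and 0.30, against -0.07 over all transcripts tested. They lay above all double knockdown libraries for 56 of 57 members (36.2% of all transcripts tested). Against wild type, 29 members were lower without overlap (41.1% of all) and 20 were higher (28.7% of all). The median member had regained 91.2% of the fall, and 25 members exceeded wild type at the group mean (42.3% of all transcripts tested). The difference was at least 1 upward for 5 members (2.63% of all) and at least 1 downward for 4 (1.69% of all). Because the labels conflict on the shRNAs, a return from the double knockdown level and a group that never had that level cannot be told apart.

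Neither YAP group entered the rule, and their difference was tested. The YAP5SA+S94A cells carried both shRNAs, while the labels conflict on the YAP5SA cells. If the latter lacked the shRNAs, the test partly repeats the wild-type against double knockdown difference that chose the members. The libraries labelled YAP5SA were higher than those with YAP5SA+S94A for 47 of 57 members and lower for 2 (edgeR quasi-likelihood test, adjusted p under 0.05 over 13061 transcripts), and 8 were not called. Among all transcripts tested, 27.8% were higher and 26.5% lower. The members' median log2 fold change was 0.69, against 0.00 over all transcripts. Of the 47, 20 were at least 2-fold higher (6.48% of all). For 50 of 57 members the group means rose from double knockdown through YAP5SA+S94A to the libraries labelled YAP5SA (23.6% of all). With each library left out in turn, the members' median log2 fold change between the YAP groups ran from 0.63 to 0.72.

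The 2 members that were lower in the libraries labelled YAP5SA differed from each other. One had group means of 99.3 CPM in wild type, 45.3 CPM in the double knockdown, 55.1 CPM with YAP5SA+S94A and 31.8 CPM in the libraries labelled YAP5SA, so it was lowest in the last. The other had 8.80, 2.97, 9.67 and 6.31 CPM in the same order, and its YAP5SA+S94A mean was the highest of the 4.

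**Figure D4:**
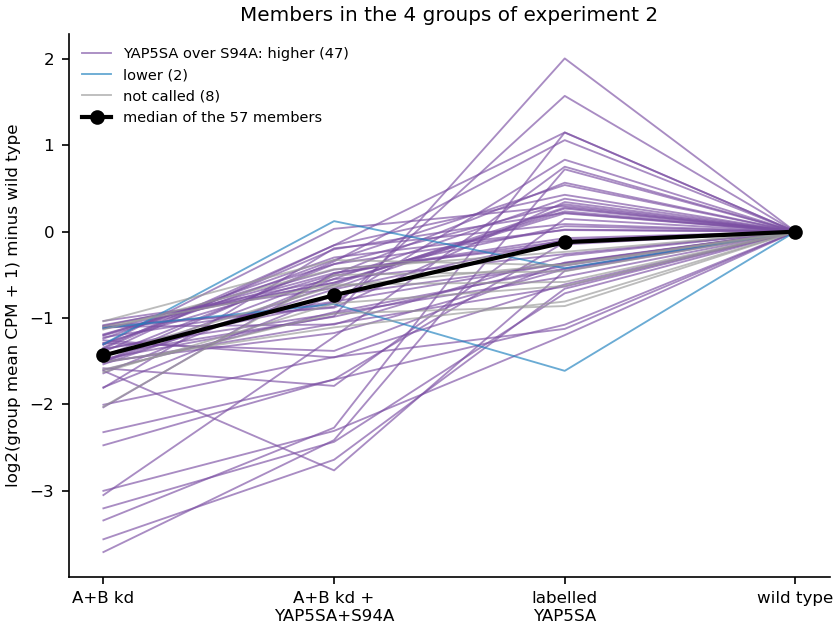
Each line is 1 member, showing log2(group mean CPM + 1) minus its wild-type value in the 4 groups of experiment 2, coloured by the call for YAP5SA over YAP5SA+S94A. The black line is the median of the 57 members, at -1.43 in the double knockdown, -0.74 with YAP5SA+S94A and -0.12 in the libraries labelled YAP5SA.

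Of the printed transcripts, 3 were taken from the 32 members with at least 10 CPM in confluent wild type of both experiments, and some members below that level had larger changes. Among the 32, transcript ENSCAFT00000048406 had the largest fall, ranked by the smaller of its 2 falls, and also the largest rise from YAP5SA+S94A to YAP5SA. Its levels at confluence in experiment 1 were 12.7 and 10.8 CPM in wild type, 2.77 and 1.88 CPM with the p190A shRNA, 3.22 and 3.68 CPM with the p190B shRNA and 1.23 and 0.520 CPM with both. In experiment 2 it stood at 19.2, 18.9 and 18.9 CPM in wild type and 0.596, 0.300 and 0.686 CPM in the double knockdown. None of these groups of wild-type and double knockdown libraries overlapped. With YAP5SA+S94A it was at 2.54, 2.96 and 2.76 CPM, and in the libraries labelled YAP5SA at 34.0 and 30.0 CPM, above wild type. The last step was a log2 fold change of 3.52 (SE 0.12, edgeR adjusted p = 7.6e-34).

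In sub-confluent cells, transcript ENSCAFT00000048406 was at 13.4 and 10.5 CPM in wild type, 4.09 and 5.17 CPM with the p190A shRNA, 1.74 and 2.65 CPM with the p190B shRNA and 2.41 and 1.39 CPM with both. The double knockdown overlapped the p190B knockdown and lay below the p190A knockdown. Against p190A the log2 fold change was -1.35 (SE 0.34, edgeR adjusted p = 0.013). That call was lost without double knockdown replicate 2 (log2 fold change -0.999, edgeR adjusted p = 0.16) and in a fit of the compared libraries (edgeR adjusted p = 0.12). Against p190B it was -0.27 (SE 0.37, edgeR adjusted p = 0.62).

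Transcript ENSCAFT00000001219 was second by fall among the 32. It was at 24.4 and 26.0 CPM in confluent wild type of experiment 1, 11.0 and 10.3 CPM with the p190A shRNA, 12.6 and 15.0 CPM with the p190B shRNA and 4.52 and 3.18 CPM with both. In experiment 2 it was at 49.1, 51.3 and 53.5 CPM in wild type, 9.41, 9.61 and 9.36 CPM in the double knockdown, 15.1, 14.0 and 15.8 CPM with YAP5SA+S94A and 23.6 and 24.0 CPM in the libraries labelled YAP5SA. No 2 of these 4 groups overlapped, and unlike the first transcript it stayed below wild type in the libraries labelled YAP5SA. The difference between the YAP groups was a log2 fold change of 0.67 (SE 0.09, edgeR adjusted p = 1.1e-09).

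At sub-confluence, transcript ENSCAFT00000001219 was at 20.1 and 21.7 CPM in wild type, 9.50 and 5.05 CPM with the p190A shRNA, 8.79 and 11.7 CPM with the p190B shRNA and 4.36 and 2.79 CPM with both. The double knockdown lay below all the others. The log2 fold change was -1.58 against p190B (SE 0.29, edgeR adjusted p = 0.0012) and -1.08 against p190A (SE 0.29, edgeR adjusted p = 0.020). The p190A call was lost without p190A replicate 1 (edgeR adjusted p = 0.24), without double knockdown replicate 2 (edgeR adjusted p = 0.21) and in a fit of the compared libraries (edgeR adjusted p = 0.21).

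Transcript ENSCAFT00000046388 had the second-largest rise between the YAP groups among the 32. In experiment 2 its level was 46.4, 50.1 and 47.6 CPM in wild type, 3.098, 2.93 and 3.43 CPM in the double knockdown, 7.46, 6.06 and 7.06 CPM with YAP5SA+S94A and 30.6 and 29.5 CPM in the libraries labelled YAP5SA. The log2 fold change between the last 2 groups was 2.12 (SE 0.10, edgeR adjusted p = 1.4e-27). In experiment 1 confluent wild type stood lower, at 11.4 and 11.7 CPM, with 3.16 and 2.65 CPM for the p190A shRNA, 2.39 and 2.98 CPM for the p190B shRNA and 1.97 and 1.69 CPM for both. Sub-confluent cells had 12.5 and 10.0 CPM in wild type, 5.48 and 3.49 CPM with the p190A shRNA, 3.85 and 4.51 CPM with the p190B shRNA and 2.33 and 1.22 CPM with both. Each knockdown lay below wild type, and the double knockdown below both single ones. Its log2 fold change in sub-confluent double knockdown was -1.40 against p190A (SE 0.30, edgeR adjusted p = 0.0056) and -1.31 against p190B (SE 0.31, edgeR adjusted p = 0.0056). Without double knockdown replicate 2 both calls were lost (edgeR adjusted p = 0.090 and 0.082). The p190A call was also lost without p190A replicate 1 (edgeR adjusted p = 0.055) and in a fit of the compared libraries (edgeR adjusted p = 0.14).

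Transcript ENSCAFT00000009583 was the exception, and it was singled out after its values had been seen. It was the member called higher in sub-confluent double knockdown cells than in either single knockdown. At confluence in experiment 1 it was at 4.67 and 4.01 CPM in wild type, 0.316 and 0.769 CPM with the p190A shRNA, 1.16 and 1.25 CPM with the p190B shRNA and 1.73 and 1.36 CPM with both. At sub-confluence it was at 4.75 and 5.88 CPM in wild type, 1.46 and 2.87 CPM with the p190A shRNA, 2.54 and 2.80 CPM with the p190B shRNA and 6.99 and 5.34 CPM with both. The sub-confluent double knockdown thus overlapped wild type, and this was the 1 member of the 57 that did not lie below it without overlap.

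The log2 fold change of transcript ENSCAFT00000009583 in sub-confluent double knockdown was 1.45 against p190A (SE 0.32, edgeR adjusted p = 0.0058) and 1.16 against p190B (SE 0.31, edgeR adjusted p = 0.012). The first call was lost without p190A replicate 1 (edgeR adjusted p = 0.055) and in a fit of the compared libraries (edgeR adjusted p = 0.11). The second was lost without double knockdown replicate 1 (edgeR adjusted p = 0.065) and without p190B replicates 1 and 2 (edgeR adjusted p = 0.090 and 0.055). In experiment 2 it was at 16.3, 17.0 and 16.9 CPM in wild type, 5.84, 6.31 and 7.11 CPM in the double knockdown, 4.65, 6.06 and 5.68 CPM with YAP5SA+S94A and 9.82 and 11.4 CPM in the libraries labelled YAP5SA. Its YAP5SA+S94A and double knockdown libraries overlapped.

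**Figure D5:**
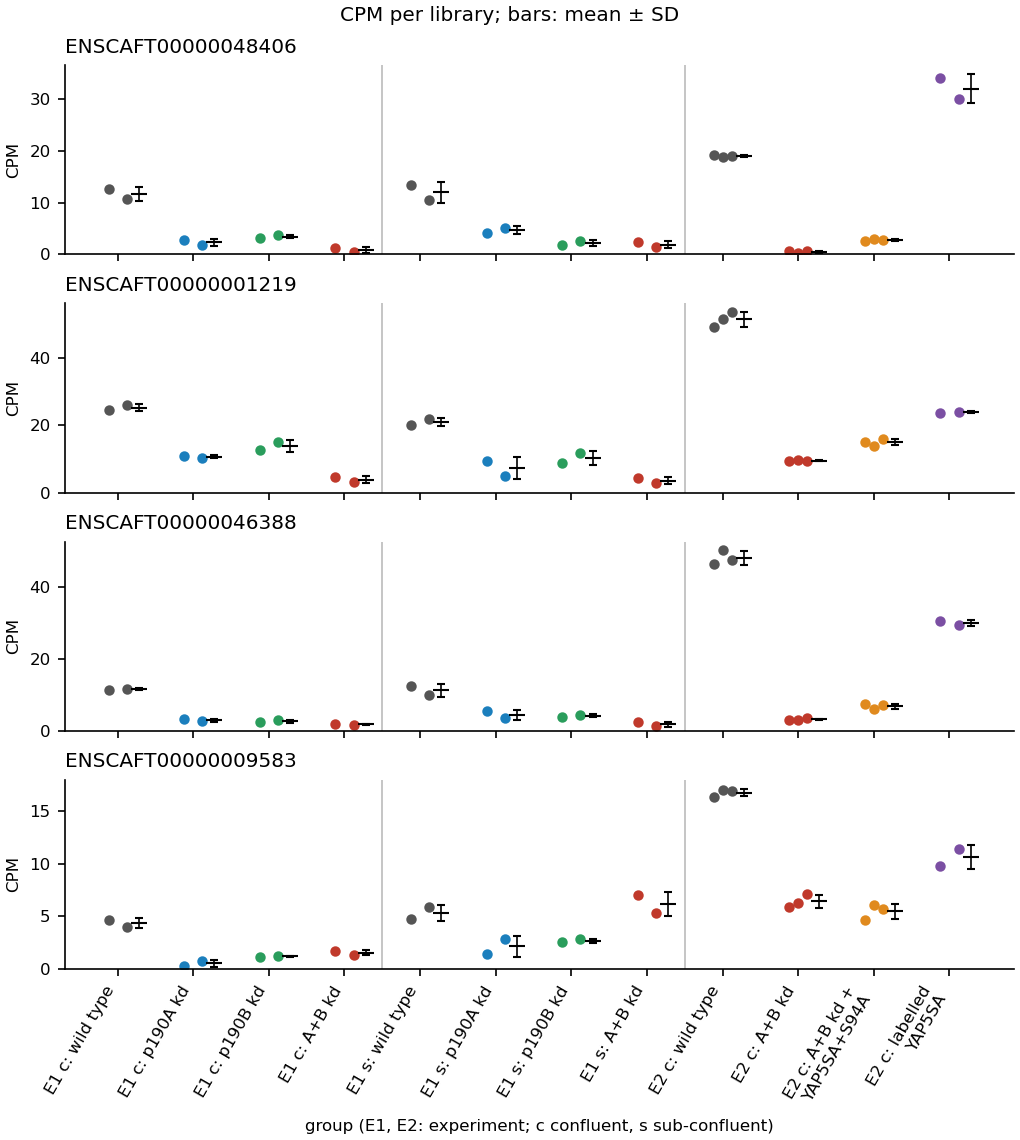
CPM of the 4 printed transcripts in each of the 27 libraries (points), with mean ± SD of each group, over the 12 groups of both experiments. The first 3 fall in every double knockdown group, and ENSCAFT00000009583 reaches 6.99 and 5.34 CPM in sub-confluent double knockdown cells.

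The most abundant member was lower with 1 shRNA and lowest with both, at a level where counting error is small. It was at 271 and 286 CPM in confluent wild type of experiment 1, 83.8 and 75.1 CPM with the p190A shRNA, 117 and 123 CPM with the p190B shRNA and 54.5 and 67.1 CPM with both. In experiment 2 it was at 228, 246 and 243 CPM in wild type, 59.1, 54.8 and 59.97 CPM in the double knockdown, 171, 166 and 170 CPM with YAP5SA+S94A and 176 and 171 CPM in the libraries labelled YAP5SA. In confluent cells of experiment 1 the p190A libraries lay below the p190B ones. At sub-confluence this member was called lower with the p190A than the p190B shRNA (log2 fold change -1.26, SE 0.17, edgeR adjusted p = 0.00017). Averaged over the single knockdowns, it was lower at confluence (log2 fold change -0.37). In wild type it was also lower at confluence, with group means of 279 CPM against 346 CPM at sub-confluence. The YAP groups nearly coincided, well above the double knockdown and below wild type.

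The members were set beside the 346 transcripts that fell in both experiments but were not flat with density, most of which were higher at confluence. On the log2 scale, the mean of the single knockdowns at confluence covered a median of 41.2% of the fall in those transcripts and 56.4% in the members. YAP5SA+S94A cells had regained 32.5% there and 45.3% in the members, and the libraries labelled YAP5SA 73.7% and 91.2%. The log2(CPM + 1) difference between the YAP groups had medians of 0.70 and 0.59. The 36 flat transcripts with single knockdowns apart had 45.5% for the single knockdowns, 44.5% for YAP5SA+S94A and 97.2% for the libraries labelled YAP5SA. These differences between sets were not tested, and nothing here is particular to the members on that ground.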

How the data were processed

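For each sample the authors deposited raw read counts over Ensembl dog transcripts, and 5 summary rows that name no transcript. Per the submitters' processing notes, the build was CanFam3.1 and the tools were HTSeq 0.6.0, STAR 2.3.1n and DESeq2 1.4.5, without roles. The sources used here do not say whether strand was used. Reads on several overlapping transcripts sat in the ambiguous row, 14.7% to 16.7% of all counts; the row outside transcripts held 14.8% to 17.7% and the row for several places 24.4% to 30.7%. These rows stayed out of library sizes and tests. Overlapping transcripts are thus measured from part of their reads.

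CPM used all transcript rows as the total. Tests were fitted across all transcripts with edgeR 4.0.16 in R 4.3.3 (filterByExpr, TMM, robust quasi-likelihood, Benjamini-Hochberg): 16 libraries and 8 groups in experiment 1, 11 libraries and 4 groups in experiment 2. The standard error (SE) came from the F statistic. The script was tested on simulated data. Alternatives used DESeq2 1.42.0, limma 3.58.1, other filters, scalings, pseudocounts and fits with libraries left out. Printed identifiers had at least 10 CPM in confluent wild type of both experiments and were the first 2 by the smaller fall and the first 2 by rise of YAP5SA over YAP5SA+S94A (1 was both), plus 1 chosen after its values were seen. The members and rules were chosen with earlier results of these data known. Planned gene lists were not run, as identifiers had no names.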

Additional observations from a re-analysis of the deposited data

Results flagged for a closer look

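For transcript ENSCAFT00000048406, cell density went with opposite differences in different lines, without overlap between the libraries compared. Confluent minus sub-confluent log2(CPM + 1), averaged over libraries, was -0.77 with the p190A shRNA and 0.49 with the p190B shRNA. It was -0.63 in double knockdown cells, against the same 0.49 with the p190B shRNA. The difference between lines was not tested. Lack of overlap was common among the 12845 transcripts tested. With the p190A shRNA, 3114 were lower and 4013 higher at confluence without overlap. These counts were 3526 and 4181 with the p190B shRNA, and 2990 and 3315 in double knockdown cells. Opposite differences were not counted over all transcripts. Averaged over the single knockdowns, this transcript had a log2 fold change of -0.20 with density (edgeR adjusted p = 0.56). Each group had 2 libraries, and the level was at most 5.17 CPM in all of them.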

How the results depend on the processing

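The number of transcripts meeting the rule was 69 and 43 with pseudocounts of 0.5 and 2 CPM and 58 with TMM-scaled sizes, with 50, 40 and 54 of the 57 members among them. It was 49 to 64 with each library left out, sharing 44 to 57. Of the counts of members called, YAP5SA against YAP5SA+S94A (46 to 50) and the p190B comparison (31 to 43; 31 to 38 with libraries left out) stayed within 1.5 times the reported count under every setting run. The share of all transcripts called varied too. With no compared library left out, it was 22.8% to 41.7% for the p190B comparison and 37.3% to 57.9% for the YAP groups. In fits of the compared groups alone, the p190A comparison called 10 members (1.79% of all transcripts) and p190A against p190B 3 (7.24%). With libraries left out these 2 counts were 23 to 40 and 5 to 12, and the density count in single knockdowns 3 to 18. The share of all transcripts called also moved. Fewer samples leave fewer degrees of freedom, and a lone library is assumed to vary like the other groups. The p190B fit of its own 4 libraries called 36 members (29.3% of all transcripts). The cause of the lower counts elsewhere was not tested. Libraries of experiment 1 with the same number had correlated deviations at the same density (0.191 to 0.624 over transcripts), but with 2 per group they share only a number. With a replicate block within density, 42 members were called against p190A (31.6% of all transcripts) and 41 against p190B (41.7%). For p190A against p190B it was 19 (30.5%), and for density 9 (19.7%). No other numbers paired libraries, and the YAP groups share none.

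Signs turned for calls that were never made: ENSCAFT00000048406 against p190B ranged from -0.675 to 0.0639 with a library left out (0.0639 and 0.0539 without double knockdown replicate 2 and p190B replicate 2). ENSCAFT00000046388 for p190A against p190B ranged from -0.25 to 0.38 (-0.25 and -0.02 without p190A and p190B replicate 1). The cause was not tested. The median difference of sub-confluent double knockdown from wild type was -1.91 and -1.39 with pseudocounts of 0.5 and 2 CPM. Members under 10 CPM have few counts in double knockdown cells, which limits their fold changes.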
